A study of Mus musculus with 8 samples.

Results

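The miR-1 and miR-206 family of muscle microRNAs was followed through exosomes of mouse plasma and cerebrospinal fluid (CSF). Its members were the 5 listed mature miRNAs named miR-1a-3p, miR-206-3p, miR-1a-1-5p, miR-1b-5p and miR-206-5p, taken by name from 1977 miRNAs listed for plasma and 1961 listed for CSF, of which 1960 were in both. Exosomes are small vesicles shed by cells, and here they came from adult wild-type mice of both sexes, which were untreated (baseline) or had received DOCA-salt, deoxycorticosterone acetate with salt, a mineralocorticoid treatment that raises blood pressure. The 8 libraries held 1 for each combination of fluid, sex and treatment, all in batch 1. Where 4 values of a fluid follow each other, their order is baseline female, DOCA-salt female, baseline male, DOCA-salt male. The labels speak of 8 mice and do not say which mice, or how many, gave each library. No combination had a replicate, so every p-value here rests on differences between libraries that also differ in sex or treatment, and intervals cover counting error only.

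Molecules were counted as unique molecular identifiers (UMIs), random tags attached to each molecule before amplification, so that a UMI stands for 1 tagged molecule and a read for 1 sequenced copy of it. Plasma libraries held 158572 to 337240 UMIs and CSF libraries 237878 to 1082504, with the male CSF libraries the deepest. Levels are given as a share of all UMIs of a library, in percent or in CPM, the UMIs of a miRNA scaled to the same total in every library. A share falls when other miRNAs of the library rise, and more vesicles that carry a miRNA cannot be told apart from more of it per vesicle. From which tissue the miRNAs came, and whether all lay within vesicles, was not tested. Erythrocyte markers made up 1.64% to 3.74% of plasma UMIs and 0.354% to 0.613% of CSF UMIs, and neuronal markers (miR-9 and miR-124-3p) 0.0148% to 0.0397% and 0.0924% to 0.183%, with every marker of both lists above 0 in every library. Single markers went both ways. The erythrocyte sum was mostly miR-486a-5p, also counted as a muscle miRNA, while miR-451a stood at 533 ± 148 CPM in plasma and 839 ± 355 in CSF, and miR-144-3p at 115 ± 41.1 and 99.2 ± 33.3 (SD, n = 4). Of the neuronal markers miR-9-5p was higher in CSF, at 999 ± 315 CPM against 143 ± 59.3, and miR-124-3p stood at 16.5 ± 10.1 in CSF and 61.7 ± 50.05 in plasma.

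A miRNA hairpin is cut into 2 arms, 5p and 3p, of which the guide strand is loaded into silencing complexes and the other is mostly degraded. miR-1 and miR-206 are the guide strands of related hairpins and share a seed, the bases 2 to 8 that select target mRNAs. miR-1 is abundant in heart and skeletal muscle, is made from 2 gene copies that each lie beside a miR-133a gene, and promotes muscle differentiation. miR-206 is largely restricted to skeletal muscle, lies beside miR-133b, and takes part in regeneration of the neuromuscular junction in mice. miR-1a-3p and miR-206-3p differ at few bases outside the seed, and how the authors' alignment placed reads that fit both is not given in the sources used here.

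The sequences below, from RefSeq on GRCm38.p6, are shown because the strands opposite the guides serve to judge the labels. The first carries the seed of the family, and the next 2 are the opposite arms, whose seeds differ from it and, at 1 base, from each other. Capitals mark the seed (bases 2 to 8), and in the hairpin they mark the 2 arms.
miR-206-3p: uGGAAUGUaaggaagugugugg
miR-1a-1-5p: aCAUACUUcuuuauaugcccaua
miR-206-5p: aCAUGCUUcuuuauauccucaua
Mir206 hairpin: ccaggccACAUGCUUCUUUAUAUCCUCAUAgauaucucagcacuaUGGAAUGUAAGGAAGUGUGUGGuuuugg

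Counted from the 5′ end, miR-1a-1-5p and miR-206-5p differ at 3 of 23 positions, A5G, G17C and C19U, of which the first falls in the seed. On mm10 (GRCm38), miR-206-3p lies on chromosome 1 from 20679055 to 20679076 on the plus strand, in an exon of the lincRNA Gm28653, and miR-206-5p from 20679017 to 20679039 in the same gene. miR-1a-1-5p lies on chromosome 2 from 180389057 to 180389079 on the plus strand, in Mir1a-1 and in no other annotated gene. The deposited position of miR-1a-3p is chromosome 18, 10785485 to 10785506, minus strand, in Mir1a-2 within the Mir133a-1hg transcript. The deposited position of miR-1b-5p is 10785486 to 10785506 on the plus strand, so that it overlaps miR-1a-3p by 21 bases on the opposite strand. By its deposited position miR-1b-5p is thus an antisense product of the Mir1a-2 locus and not the other arm of a miR-1a hairpin. From which locus its reads arose was not tested. The deposited positions of miR-1a-3p and miR-1b-5p lie within the gene Mib1, which runs on the plus strand.

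Which count row is which guide had to be asked first for CSF. There the deposited CPM of 2 of 1961 rows, miR-1a-3p and miR-206-3p, differed from the UMI count over the library total by more than 0.001 CPM, and 0 rows differed once these 2 were exchanged. The read counts stood in the same rows as the UMIs. In plasma 0 of 1977 rows differed. CSF values of the guides are therefore given by the count row as labelled, with the exchanged labels beside them, and the sum of both rows does not depend on the labels.

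The opposite strand miR-1a-1-5p followed the row labelled miR-206-3p. miR-1a-1-5p had 74, 28, 452 and 450 UMIs in the CSF libraries, fewer in both females than in both males. It stood at 0.134% to 0.174% of the row labelled miR-206-3p, a 1.29-fold span over 4 libraries, and at 0.0436% to 1.58% of the row labelled miR-1a-3p, a 35.1-fold span. miR-1b-5p, antisense to miR-1a-3p by its deposited position, had 2821, 1178, 20380 and 21029 UMIs. It stood at 5.92%, 5.84%, 6.06% and 8.12% of the row labelled miR-206-3p, and at 13.8%, 1.84%, 71.4% and 11.6% of the row labelled miR-1a-3p. For miR-1b-5p the SD of the log2 ratio (counts plus 1, n = 4) was 0.23 in UMIs and 0.09 in reads against the first row. Against the second it was 2.16 and 2.07. Both strands, placed at miR-1 loci by name and deposited position, thus kept a steady proportion to the row that carries the name of miR-206.

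In plasma, where no CPM stood in another row, miR-1b-5p followed miR-1a-3p more closely. It stood at 19.2%, 24.5%, 36.2% and 17.9% of miR-1a-3p, and at 64.7%, 16.6%, 76.5% and 13.2% of miR-206-3p. The SD of the log2 ratio to miR-1a-3p was 0.46 in UMIs and 0.66 in reads, and to miR-206-3p 1.31 and 1.23. For miR-1a-1-5p, with 1 to 12 UMIs, the SDs in UMIs were 0.57 to miR-1a-3p and 0.86 to miR-206-3p. With the CSF labels exchanged, the steadier ratio was to the row named miR-1a-3p in both fluids. As labelled, it was to miR-1a-3p in plasma and to miR-206-3p in CSF.

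The opposite arm of miR-206 did not separate the rows. miR-206-5p had 2, 3, 12 and 5 CSF UMIs, and the SD of its log2 ratio was 1.32 to the row labelled miR-206-3p and 1.64 to that labelled miR-1a-3p. In plasma, with 23, 13, 7 and 11 UMIs, the SDs were 1.94 to its own guide and 0.99 to miR-1a-3p, so the arm did not follow its guide there either. The neighbours of the guides did not separate the CSF rows: for miR-133a-3p the SDs were 1.14 to each, and for miR-133b-3p 1.10 and 1.20. In plasma both neighbours followed miR-1a-3p (0.29 and 0.27) more closely than miR-206-3p (0.96 and 1.00), although the miR-133b-3p gene lies 3758 bases from miR-206-3p. The plasma SDs to miR-206-3p, here and above, use a baseline male count of 98 UMIs from 7999 reads. In reads the SDs to miR-206-3p were 1.91 for miR-206-5p, 1.61 for miR-133a-3p and 1.55 for miR-133b-3p. To miR-1a-3p they were 1.17, 0.28 and 0.30 in the same order. Both neighbours had almost the same counts in each library, so the ratios of one largely repeat those of the other.

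**Figure D1:**
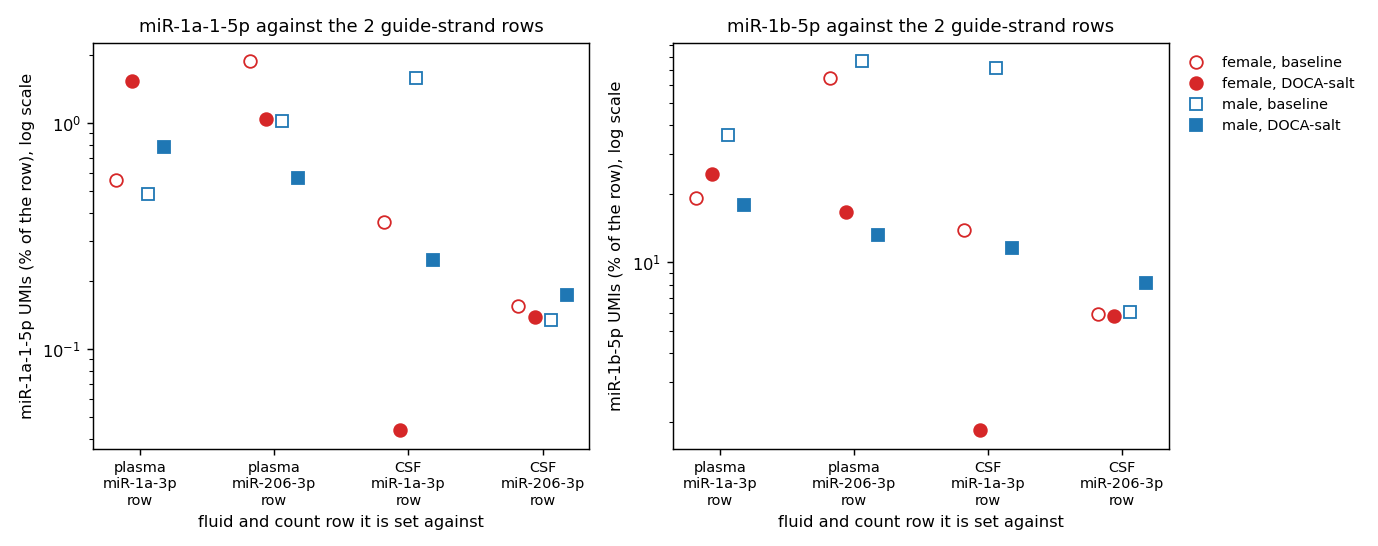
UMIs of miR-1a-1-5p (left) and miR-1b-5p (right) as a percentage of each guide row (log axis), 1 point per library, circles for females, squares for males, open for baseline and filled for DOCA-salt. In CSF both sit in a narrow band against the row labelled miR-206-3p (0.134% to 0.174%, and 5.84% to 8.12%) and spread over 35.1-fold and 38.8-fold against the row labelled miR-1a-3p.

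The 2 guide rows together were a trace of plasma and a large part of CSF. Their summed share of plasma UMIs was 0.416%, 0.476%, 0.192% and 1.19%, highest in the DOCA-salt male. In CSF the sum was 28.6%, 27.8%, 48.4% and 40.7%. The lowest CSF library stood far above the highest plasma library, and the means of 36.4% ± 9.98 and 0.569% ± 0.433 (SD, n = 4 each) differed 63.9-fold. Within CSF both males stood above both females. Counted in reads, the means were 37.1% ± 10.3 and 0.818% ± 0.397.

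The row labelled miR-1a-3p held 8.58%, 21.1%, 3.79% and 16.8% of CSF UMIs and 0.321%, 0.192%, 0.131% and 0.505% of plasma UMIs. The row labelled miR-206-3p held 20.02%, 6.65%, 44.7% and 23.9% of CSF and 0.0950%, 0.283%, 0.0618% and 0.688% of plasma. These were the 2 most abundant rows of 3 CSF libraries, and in the baseline male the row labelled miR-1a-3p ranked 5. In CSF the library highest in one row was the lowest in the other, both ways round, while the DOCA-salt male ranked 2 and the baseline female ranked 3 of the 4 in both rows.

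miR-1b-5p held 1.19%, 0.388%, 2.71% and 1.94% of CSF UMIs, against 0.0615%, 0.0471%, 0.0473% and 0.0906% of plasma UMIs. miR-1a-1-5p stood at 311, 92.2, 600 and 416 CPM in CSF and at 17.9, 29.7, 6.31 and 39.4 CPM in plasma. miR-206-5p was the exception among the members, at 8.41, 9.88, 15.9 and 4.62 CPM in CSF and 82.2, 38.5, 44.1 and 36.1 CPM in plasma. The other miR-1 strands, which are not members, were close to the detection limit, with 1 to 4 UMIs of miR-1a-2-5p and 0 to 4 of miR-1b-3p in CSF libraries.

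**Figure D2:**
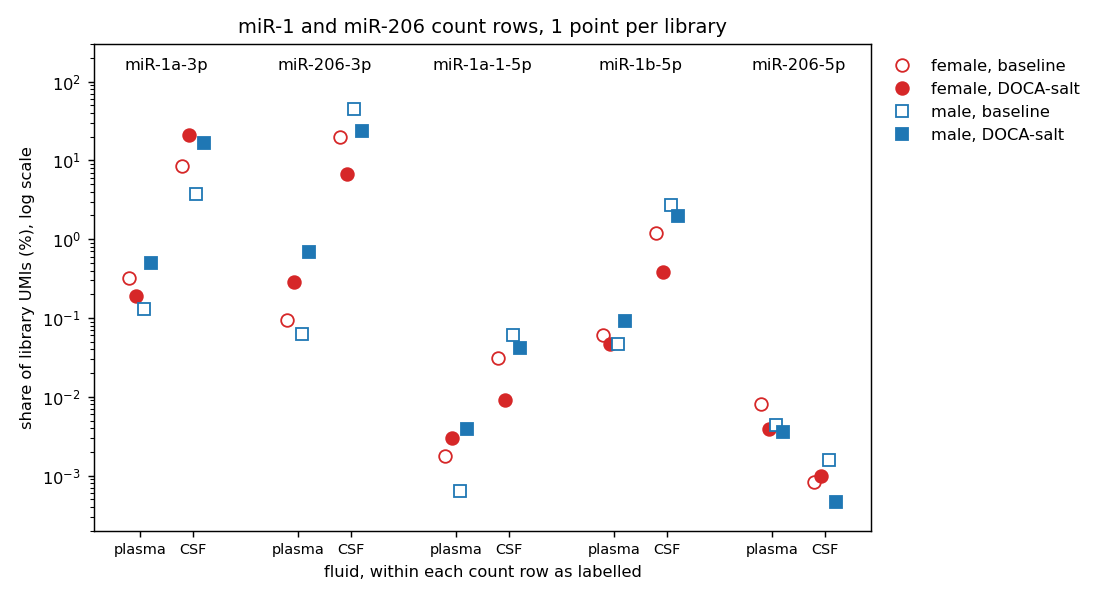
Share of library UMIs (percent, log axis) of each count row as labelled, 1 point per library, with plasma and CSF side by side. All 4 CSF points lie above all 4 plasma points in the first 4 rows and below them in the miR-206-5p row.

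The 4 CSF libraries stood above the 4 plasma libraries in CPM for 4 of the 5 members, which was the case for 3.01% of 1460 miRNAs with at least 50 UMIs in all. They stood below for miR-206-5p, as for 53.6% of those miRNAs. In edgeR's quasi-likelihood fit of fluid over all 8 libraries, with TMM scaling and Benjamini-Hochberg adjustment, 4 of 5 members were higher in CSF at an adjusted p under 0.05, beside 26.2% of 1146 miRNAs tested. The median log2 difference was 6.61 over the members and -0.12 over all tested. miR-1a-1-5p was 52.2-fold higher, with a log2 difference of 5.71 ± 0.72 (SE, adjusted p = 4.34e-06), and miR-1b-5p was 97.8-fold higher, at 6.61 ± 0.82 (adjusted p = 3.87e-06). The rows labelled miR-206-3p and miR-1a-3p ranked 1 and 7 by size among all tested, and both passed with the labels exchanged too. The difference of miR-206-5p was -0.61 ± 0.49 (adjusted p = 0.315). With library totals in place of TMM it was -2.37 (adjusted p = 0.00114), under which the median of all tested was -1.72.

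Other muscle miRNAs were split. Of 9 others on the muscle list, 4 could be tested between fluids and 2 were higher in CSF, beside 26.2% of 1146 miRNAs tested. These were miR-133a-3p and miR-133b-3p, both regulators of myoblast proliferation. The other tested ones leaned toward plasma without passing. The log2 difference was -1.04 ± 0.51 for miR-486a-5p (edgeR, adjusted p = 0.0952) and -1.06 ± 0.51 for miR-486b-5p (adjusted p = 0.0869). miR-133a-3p held 5.12%, 4.28%, 4.32% and 4.32% of CSF UMIs, a 1.20-fold range, against a 5.57-fold range for the row labelled miR-1a-3p and 6.72-fold for that labelled miR-206-3p. The myosin-encoded miRNAs of heart and slow muscle, miR-208a-3p, miR-208b-3p and miR-499-5p, had means of 2.75, 4.75 and 4.75 UMIs per CSF library. Their mean CPM was 7.47, 7.62 and 9.72 in CSF, against 29.9, 43.1 and 28.4 in plasma. miR-133a-3p and miR-133b-3p had almost the same counts in each library, and whether the alignment divided reads between them was not tested.

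The question of DOCA-salt was put to each fluid separately. In plasma miR-206-3p had 266, 956, 98 and 2097 UMIs. By CPM both treated libraries stood above both baseline libraries, 2.98-fold by share in females (95% interval 2.60 to 3.43, exact conditional binomial) and 11.1-fold in males (9.09 to 13.8). miR-1a-3p had 897, 649, 207 and 1538 UMIs, a share 1.67-fold lower in the DOCA-salt female and 3.87-fold higher in the DOCA-salt male, so its groups overlapped.

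The plasma fit had terms for sex and for treatment and 1 residual degree of freedom. In it miR-206-3p rose 6.38-fold with DOCA-salt, by 2.67 ± 0.50 on the log2 scale (edgeR, adjusted p = 0.0041), the largest change of 1398 tested. It was the only one of 4 tested members past the threshold, beside 1.07% of all tested in either direction and 0.286% upward. It was also the only member at least 2-fold higher in both pairs, as were 0.812% of 616 miRNAs with at least 50 UMIs per pair. The changes of miR-1a-3p, miR-1b-5p and miR-206-5p were 0.76 ± 0.52 (adjusted p = 0.560), 0.43 ± 0.49 (adjusted p = 0.748) and -0.58 ± 0.52 (adjusted p = 0.669), and miR-1a-1-5p was too low to test. Of the 9 other muscle miRNAs 5 were tested and 0 passed, in DESeq2 too. Of these, 1 had an unadjusted p under 0.05, miR-133a-3p, at 1.06 ± 0.52 (adjusted p = 0.352). The median was 0.60 over the tested members and -0.03 over all tested.

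The baseline male count of miR-206-3p stands apart. Its 98 UMIs came from 7999 reads, 81.6 reads per UMI, whereas the other 3 plasma libraries gave 4.82, 5.27 and 4.11. Of 604 rows with at least 20 UMIs in that library it had the most reads per UMI, and the next had 11.0. Counted in reads, the DOCA-salt male stood 1.06-fold below the baseline male, and the fitted change was 0.93 (edgeR, adjusted p = 0.538). Without the baseline male library it was 2.29 (edgeR, adjusted p = 0.136), without the DOCA-salt female 3.08 (adjusted p = 0.264), and 2.21 with the DOCA-salt male left out (adjusted p = 0.217). With library totals it was 2.51 (adjusted p = 0.245). It kept the call in the other 4 alternatives, at 2.71 in DESeq2 (adjusted p = 0.000896), 2.704 with DESeq2's size factors (adjusted p = 5.66e-05), 2.698 with no filter (adjusted p = 7.76e-06) and 3.25 without the baseline female (adjusted p = 0.00234). The female pair, which does not use that count, was 3.04-fold higher in reads.

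The ratio of miR-206-3p to miR-1a-3p within a library does not depend on scaling. In plasma UMIs it was 0.297, 1.47, 0.473 and 1.36. miR-1a-3p was the more frequent guide in both baseline libraries and miR-206-3p in both treated ones, the ratio being 4.97-fold and 2.88-fold higher there. In reads the female ratio was 5.04-fold higher after DOCA-salt and the male ratio 3.90-fold lower, 1.41 against 5.51.

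In CSF the row labelled miR-1a-3p was higher in share after DOCA-salt, 2.46-fold in the female pair and 4.43-fold in the male pair, and the row labelled miR-206-3p was 3.01-fold and 1.87-fold lower. miR-1a-1-5p went with the latter, 3.37-fold and 1.44-fold lower, as did miR-1b-5p, 3.06-fold and 1.39-fold lower. The sum of both rows was 1.03-fold and 1.19-fold lower, and the share of miR-133a-3p 1.20-fold lower in females and 1.00-fold in males. The pairs thus differed in the balance of the 2 rows while their sum was nearly level.

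The row labelled miR-1a-3p was at least 2-fold higher in both pairs, as were 2.65% of 377 miRNAs with at least 50 UMIs per pair. Its fitted log2 change was 1.80 ± 0.52 (edgeR, adjusted p = 0.0958). For the row labelled miR-206-3p the change was -1.17 ± 0.53 (adjusted p = 0.468). With the labels exchanged the 2 values change places. miR-1a-1-5p stood at -1.02 ± 0.52 (adjusted p = 0.579) and miR-1b-5p at -0.97 ± 0.48 (adjusted p = 0.575), and miR-206-5p was too low to test. These last values and that of the row labelled miR-206-3p turned on single libraries: without the DOCA-salt female they were 0.25 for miR-1a-1-5p, 0.34 for miR-1b-5p and -0.08 for the row labelled miR-206-3p. Without the baseline male they were 0.85, 1.13 and 0.72, and without the DOCA-salt male -3.09, -3.14 and -3.10. None of the 4 tested members passed, beside 0.193% of 1036 miRNAs. Unadjusted, edgeR's p was 0.000584, 0.0276 and 0.0448 for the rows labelled miR-1a-3p and miR-206-3p and for miR-1b-5p, the 3 members under 0.05, and DESeq2 called 0 members. Of the 9 other muscle miRNAs 5 were tested in CSF and 0 passed, in DESeq2 too, with 3 under 0.05 unadjusted. Of these the opposite arm miR-133a-5p, with 8 to 43 UMIs per library, stood at -1.87 ± 0.55 (edgeR, adjusted p = 0.0958). Its guide miR-133a-3p stood at -0.05 ± 0.48 (adjusted p = 0.989). miR-486a-5p and miR-486b-5p, also under 0.05 unadjusted, went the other way, at 0.95 ± 0.47 (adjusted p = 0.554) and 0.92 ± 0.47 (adjusted p = 0.576). With no filter on low counts the row labelled miR-1a-3p passed, at 1.88 (adjusted p = 0.0459).

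As labelled, the ratio of miR-206-3p to miR-1a-3p in CSF was 2.33, 0.315, 11.8 and 1.42. After DOCA-salt it was 7.42-fold lower in females and 8.27-fold lower in males. With the labels exchanged it was 0.429, 3.18, 0.0849 and 0.702, higher by the same factors in both pairs. The direction in CSF thus rests on the labels alone, and with the exchanged labels it is that of the plasma UMIs.

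**Figure D3:**
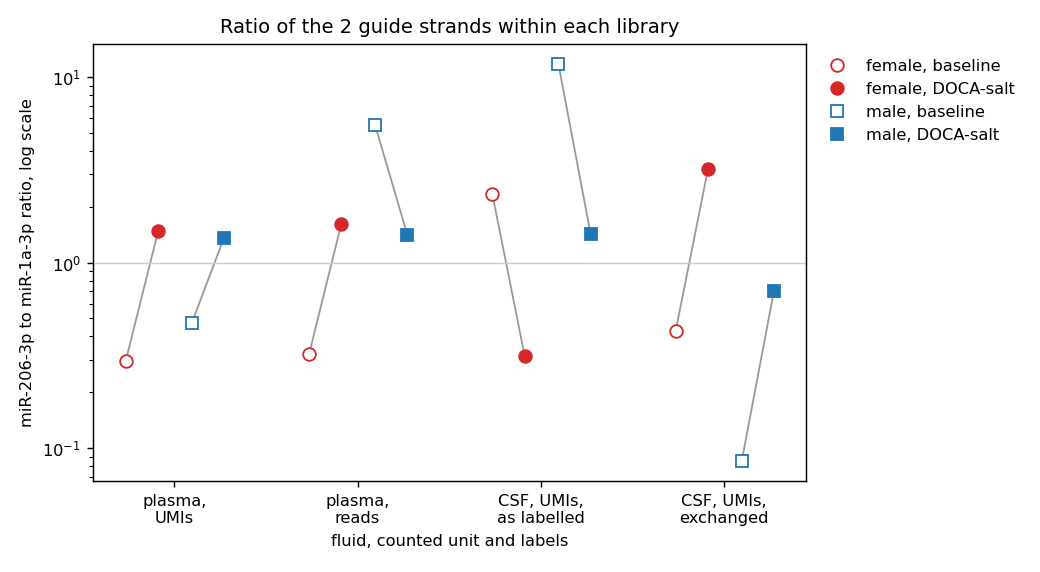
Ratio of miR-206-3p to miR-1a-3p within each library (log axis), with a line from baseline to DOCA-salt in each sex, for plasma in UMIs and in reads and for CSF as labelled and exchanged. The lines rise for plasma UMIs (0.297 to 1.47 and 0.473 to 1.36), the male line falls in plasma reads, and both CSF lines turn over when the labels are exchanged.

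Whether the DOCA-salt difference was unlike in the 2 fluids was tested as an interaction over all 8 libraries, with 2 residual degrees of freedom. For miR-206-3p as labelled it was -3.91 ± 0.85 on the log2 scale (edgeR, adjusted p = 0.115), CSF minus plasma. None of the 5 members passed, beside 0% of 1465 miRNAs tested, of which 113 had an unadjusted p under 0.05. For miR-206-3p the call depends on the settings. It passed in DESeq2's test at -3.88 (adjusted p = 0.00051) and with library totals at -3.76 (edgeR, adjusted p = 0.0185). It also passed with DESeq2's size factors at -3.87 (edgeR, adjusted p = 0.029) and with no filter at -3.82 (adjusted p = 0.00149). With 1 library left out it was between -4.82 and -3.04, but the remaining libraries of that fluid were then fitted exactly and added no spread. In reads the difference for miR-206-3p was -2.02 (edgeR, adjusted p = 0.867). With the labels exchanged it was -0.94 ± 0.80 (adjusted p = 0.797) and for miR-1a-3p -1.996 ± 0.895 (adjusted p = 0.631). For miR-1a-3p as labelled it was 0.97 ± 0.85 (adjusted p = 0.804), so the exchange turns its direction. The remaining differences were -2.59 ± 0.87 for miR-1a-1-5p (adjusted p = 0.478), -1.47 ± 0.71 for miR-1b-5p (adjusted p = 0.631) and -0.56 ± 1.01 for miR-206-5p (adjusted p = 0.947).

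Between the sexes, 3 of 4 tested members were higher in male CSF, beside 3.19% of 1036 miRNAs. By share the row labelled miR-206-3p was 2.23-fold higher in the male at baseline and 3.60-fold after DOCA-salt. miR-1a-1-5p was 1.93-fold and 4.51-fold higher, and miR-1b-5p 2.28-fold and 5.01-fold. The row labelled miR-1a-3p went the other way, 2.26-fold and 1.26-fold lower. The row labelled miR-206-3p and miR-1b-5p were at least 2-fold higher in both pairs, as were 1.29% of 389 miRNAs with at least 50 UMIs per pair.

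The fitted log2 differences were 2.64 ± 0.56 for the row labelled miR-206-3p (6.23-fold, edgeR, adjusted p = 0.000296), 2.67 ± 0.54 for miR-1a-1-5p (6.38-fold, adjusted p = 0.000154) and 2.89 ± 0.51 for miR-1b-5p (7.43-fold, adjusted p = 9.43e-06). The row labelled miR-1a-3p stood at 0.38 ± 0.51 (adjusted p = 0.792). With the labels exchanged these guide values change places, and the miR-1 guide, its opposite arm and its antisense product are then the 3 that pass. With all 8 libraries scaled together, the TMM factors of the male CSF libraries were 0.397 and 0.377 and of the female ones 0.856 and 0.793. The sex fit scaled the CSF libraries alone, with factors of its own. With library totals the differences were smaller and still passed, at 1.49 (adjusted p = 0.0352), 1.53 (adjusted p = 0.0413) and 1.75 (adjusted p = 0.0254), under which the median of all tested was -1.20. The row labelled miR-1a-3p then stood at -0.76 (adjusted p = 0.178).

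The calls were lost without either female. Without the baseline female the adjusted p (edgeR) was 0.177 for miR-1a-1-5p, 0.349 for miR-1b-5p and 0.424 for the row labelled miR-206-3p. Without the DOCA-salt female it was 0.748, 0.748 and 0.776, with all log2 differences between 1.93 and 3.68. miR-1a-1-5p also missed the threshold without the baseline male, at 2.32 (adjusted p = 0.0538), and in reads, at 2.33 (adjusted p = 0.149). Of the 9 other muscle miRNAs 5 were tested and 0 passed, in DESeq2 too, with 1 under 0.05 unadjusted. This was miR-133a-3p, higher in males by 1.02 ± 0.49 on the log2 scale (edgeR, adjusted p = 0.236), and miR-133b-3p stood at 0.93 ± 0.49 (adjusted p = 0.307). The median was 0.87 over the tested muscle miRNAs and -0.06 over all tested. By share, without TMM scaling, miR-133a-3p was 1.18-fold lower in the male at baseline and 1.01-fold higher after DOCA-salt.

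In plasma none of the 4 tested members differed past the threshold between the sexes, beside 0.143% of 1398 miRNAs. The log2 differences, male minus female, were -0.30 ± 0.52 for miR-1a-3p (edgeR, adjusted p = 0.935), -0.06 ± 0.49 for miR-1b-5p (adjusted p = 0.988) and -0.84 ± 0.52 for miR-206-5p (adjusted p = 0.774). For 0 of the 4 was the unadjusted p under 0.05 in edgeR, and DESeq2 called 0. Of the 9 other muscle miRNAs 5 were tested and 0 passed, in DESeq2 too, with 2 under 0.05 unadjusted. By share miR-1a-3p was 2.46-fold lower in the male at baseline and 2.62-fold higher after DOCA-salt, and miR-206-3p 1.54-fold lower and 2.43-fold higher. For miR-206-3p the order at baseline rests on the count of 98 UMIs, and in reads the male was 7.39-fold higher at baseline and 2.28-fold higher after DOCA-salt. Its fitted difference was -0.0011 ± 0.38 in UMIs (edgeR, adjusted p = 0.998) and 1.69 in reads (adjusted p = 0.725). Within 1 fluid a sex-by-treatment term leaves no residual degree of freedom, and such a term was not fitted across fluids.

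The strands also differed in how often each tagged molecule was read. In CSF miR-1b-5p had 1.04, 1.03, 1.05 and 1.07 reads per UMI, against library medians of 1.32, 1.22, 1.49 and 1.89 over rows with at least 20 UMIs. It came 425 of 426, 492 of 498, 568 of 571 and 675 of 677 in order from the highest. miR-1a-1-5p was also below the medians and slightly above miR-1b-5p, at 1.11, 1.036, 1.09 and 1.13, and came 410, 490, 567 and 667 in the same order.

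The guides lay near the medians, at 1.298, 1.21, 1.45 and 1.79 for the row labelled miR-1a-3p and 1.27, 1.19, 1.42 and 1.72 for that labelled miR-206-3p. In plasma miR-1b-5p had 1.47, 2.35, 2.88 and 1.32 reads per UMI against medians of 4.70, 5.14, 7.19 and 4.05, and miR-1a-3p 4.44, 4.79, 7.02 and 3.97. miR-1b-5p was thus read less often per molecule than the guides in all 8 libraries, and its share of reads is smaller than its share of UMIs.

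**Figure D4:**
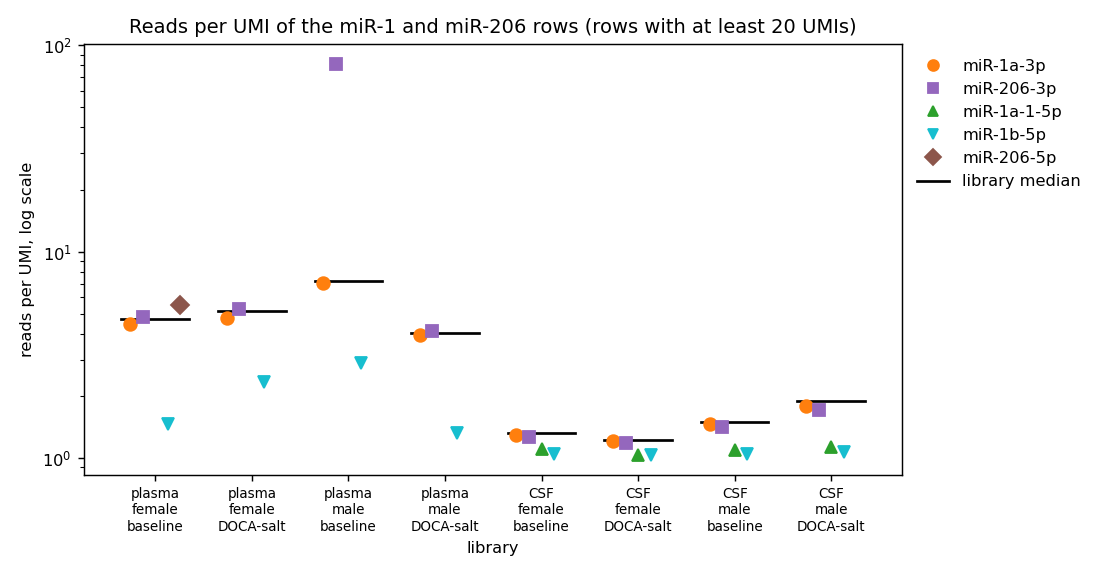
Reads per UMI (log axis) of each member with at least 20 UMIs in a library, with the library median of all such rows as a bar. miR-1b-5p lies below the bar in all 8 libraries, and miR-206-3p of the baseline male plasma library stands at 81.6.

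The miRNAs whose counts kept the steadiest ratio to each guide were named by the SD of the log2 ratio over the 4 libraries of a fluid, among miRNAs with a mean of at least 20 UMIs, as a description. In CSF, with 541 candidates, the row labelled miR-206-3p had miR-1a-1-5p (0.16), miR-1b-5p (0.23) and miR-30e-3p (0.28) as its nearest. The row labelled miR-1a-3p had miR-10b-5p (0.18), miR-10a-3p (0.41) and miR-335-5p (0.42). miR-10b-5p, encoded in a Hox cluster, had 667, 2094, 1165 and 5566 UMIs, high in the treated libraries like that row.

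Among 828 plasma candidates miR-1a-3p had miR-7015-5p (0.14), miR-540-5p (0.17) and miR-3070-5p (0.18) as its nearest, with miR-133b-3p in place 6, miR-133a-3p in place 9 and miR-1b-5p in place 32. miR-206-3p had miR-6907-3p (0.50), miR-7665-3p (0.61) and miR-7049-5p (0.66), all farther than the nearest of miR-1a-3p. The ratios to plasma miR-206-3p use its baseline male count of 98 UMIs from 7999 reads. The 4 libraries behind each ratio differ in depth, and no test was made of likeness.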

How the data were processed

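Per the labels' protocols, exosomal RNA (miRNeasy Micro extraction) was made into QIAseq miRNA libraries with UMIs, and reads were trimmed with Cutadapt 2.7. Per the submitters' processing notes, Bowtie 1.3.0 and edgeR were used, on mm10 and GRCm38. The deposited UMI and read columns hold counts per mature miRNA. The deposited CPM columns equal UMIs over the library total, except for the CSF rows described in the report. Coordinates are as deposited, on mm10.

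Members and lists were chosen with earlier results of these data known. Rows passing filterByExpr were scaled with TMM factors and tested on their UMI counts in edgeR 4.0.16 (R 4.3.3, quasi-likelihood, Benjamini-Hochberg adjustment over all miRNAs tested, threshold 0.05). Fluid was the only term over 8 libraries (6 residual degrees of freedom). Within a fluid, sex and treatment were terms. The interaction fit had both terms by fluid. Adjusted p-values printed with a member are from these fits unless another tool is named. DESeq2 1.42.0, its size factors, library totals, no filter, reads, exchanged CSF labels, a block per condition and each library left out in turn were alternatives. Shares carry exact Clopper-Pearson 95% intervals and pair ratios exact conditional binomial intervals. The scripts were tested on simulated data. The named miRNAs were the members, the other miR-1 strands, the 9 other muscle miRNAs, the erythrocyte and neuronal markers, and the 3 of steadiest ratio to each guide in each fluid.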

Additional observations from a re-analysis of the deposited data

Results flagged for a closer look

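In groups of 4 libraries, a value was singled out where the gap to its nearest neighbour exceeded, as a part of the whole range, Dixon's 95% critical value, which chance gives in about 1 of 20 groups. Of 24 groups examined, 2 held such a value, both reads per UMI of the baseline male plasma library. miR-206-3p had 81.6 reads per UMI there, against 4.11 to 5.27 in the other 3 plasma libraries. miR-1a-1-5p had 10 reads per UMI there, 1 UMI from 10 reads, against 1.80 to 2.50 in the others.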

How the results depend on the processing

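The count of miRNAs past the threshold between fluids stayed within 1.5 times 593 in all 15 alternatives (531 to 797), and with library totals the split moved from 300 higher and 293 lower to 63 and 734. Pairing the fluids by a replicate block per condition gave 601 calls and changed no member's call, and the labels do not say that a condition marks the same mice. Within a fluid the counts moved in most alternatives, and the cause was not tested. For DOCA-salt in plasma the count was 15, and 29 with DESeq2's size factors, 0 with library totals, 1 with DESeq2's test, 29 without filter, 0 in reads and 0 to 73 leaving out 1 library. For DOCA-salt in CSF it was 2, and 0, 0, 0, 4 and 0 in the same order, and 0 to 1 leaving out 1 library. For sex in plasma it was 2, and 5, 0, 0, 10 and 0, and 0 to 28. For sex in CSF it was 54 (33 higher, 21 lower), and 36, 359 (6 higher, 353 lower), 25, 34 and 5, and 0 to 30. For the interaction it was 0, and 2, 2, 1, 3 and 0, and 0 to 3. Exchanging the CSF labels moved the SD of the log2 ratio to miR-1a-3p from 2.11 to 0.16 for miR-1a-1-5p and from 2.16 to 0.23 for miR-1b-5p. Depth limits miR-206-5p in CSF (2 to 12 UMIs) and miR-1a-1-5p in plasma (1 to 12 UMIs). Where a library was left out within a fluid, only the tested term was kept, and the lone library was assumed to vary like the others.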
